A study of Mus musculus with 4 samples.

Results

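Il4, Il5, Il13 and Il9 encode the type 2 cytokines, the secreted messengers that drive allergic inflammation in the airway. The transcripts of these 4 genes, of 31053 genes in the files, were counted in every cell barcode of 4 single-cell libraries of mouse lung. A barcode with at least 1 unique molecular identifier (UMI) of any of them is called a producer here. There were 227 producers among 28805 barcodes.

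Live CD45.2+ immune cells had been sorted from the lungs of C57BL/6 mice (male, 5 to 10 weeks old in the study's methods). All mice carried floxed Ift20 alleles, without Cre in WT and with CD4 cre in KO, and this driver deletes in the precursors of both CD4 and CD8 T cells. Papain mice received 25 µg of the protease intranasally on 3 days with a challenge on day 14, the controls were given the buffered saline DPBS instead, and lungs were taken on day 15. Each of the 4 combinations is 1 library made with 10x Genomics 3′ v3 chemistry from a number of mice that the labels leave out. Where 4 values stand together they follow 1 order, the DPBS libraries before the papain libraries and WT before KO within each pair. All differences therefore lack a replicate check, no p-value was computed, and all intervals are 95% intervals that cover counting error only.

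The libraries held 5863 to 8552 barcodes and between 53854420 and 75675956 UMIs. In all, 65 barcode sequences occurred in more than 1 library. Only 1 producer shared its barcode with another library, and none shared it with another producer. Ift20, the deleted gene, stood at 56.6, 23.3, 58.9 and 23.2 counts per 1000000 UMIs (CPM) in T cells of the 4 libraries. The T cells of both KO libraries were thus below those of both WT libraries. UMIs of a 3′ library can remain where the deleted part lies elsewhere in the gene, so they give no deletion rate.

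IL-4 instructs T helper cells and B cells, IL-5 supports eosinophils, and IL-13 acts on epithelium, smooth muscle and macrophages. IL-9 acts on mast cells and on innate lymphoid cells. The main sources of these cytokines in the lung are T helper 2 cells, type 2 innate lymphoid cells (ILC2), which respond to the epithelial alarmins without an antigen receptor, and basophils. Il4, Il5 and Il13 lie side by side in 1 cluster and share the regulatory region in the neighbouring gene Rad50, and GATA3 is their main activator in both T cells and ILC2.

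The cluster lies on chromosome 11 (GRCm38, GENCODE M21). Il4 (ENSMUSG00000000869) runs from 53602982 to 53618669 on the minus strand, and Il13 (ENSMUSG00000020383) from 53631324 to 53634702 on the same strand. Rad50 follows from 53649519 to 53707319 on the minus strand, and Il5 (ENSMUSG00000036117) from 53720794 to 53725106 on the plus strand. The gap between Il4 and Il13 is 12.7 kb, and the whole stretch from Il4 to Il5 spans 122 kb. Il9 (ENSMUSG00000021538) lies elsewhere, on chromosome 13 from 56479277 to 56482246 on the minus strand. The main transcripts of Il4, Il5 and Il13 have 4 exons each, and that of Il9 has 5.

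Since the 3 clustered genes differed together in T cells, the 120 bases just before the start site of each are shown, 5′ to 3′ on the strand of the gene (RefSeq, GRCm38.p6). The windows are chr11:53618666-53618785 on the minus strand for Il4, chr11:53720674-53720793 on the plus strand for Il5 and chr11:53634703-53634822 on the minus strand for Il13. Capitals mark matches to 4 letter strings of the kind that GATA factors bind (AGATAA or its variant ending in G, and the same pair with T in first place), searched on both strands over 250 bases before the start.
Il4: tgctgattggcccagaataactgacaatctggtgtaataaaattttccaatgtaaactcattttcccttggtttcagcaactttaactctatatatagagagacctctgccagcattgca
Il5: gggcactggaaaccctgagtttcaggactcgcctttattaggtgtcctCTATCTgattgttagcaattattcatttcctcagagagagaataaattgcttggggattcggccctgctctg
Il13: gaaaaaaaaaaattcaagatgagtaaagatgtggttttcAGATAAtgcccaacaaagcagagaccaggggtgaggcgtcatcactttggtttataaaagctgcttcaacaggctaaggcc

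The match in Il13 begins 81 bases before the start site and that in Il5 begins 72 bases before it, where the letters are those of the opposite strand. Neither overlaps another match. The Il4 window holds none of the 4 strings, and a second RefSeq start site of Il4 has 1 match that begins 80 bases before it. Of 32851 promoter windows of 250 bases, the length searched, 26.5% hold at least 1 match, so these letters are common and describe the sequence only.

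Il13 spanned the widest range of raw UMIs between libraries. It had 112, 33, 746 and 121 UMIs in the 4 libraries. Il4 had 21, 9, 209 and 37 UMIs, and Il5 had 73, 56, 209 and 115. All 3 genes were highest in Papain WT. Il9 had 0 UMIs in every library, and with 3 counts as the floor this allows a share of cells with an Il9 UMI of up to 0.0351%, 0.0505%, 0.0355% and 0.0512%.

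Few cells carried these UMIs. Producers were 28 of 8552, 23 of 5946, 128 of 8444 and 48 of 5863 barcodes. Papain WT therefore held more producers than the other 3 libraries together. Many carried a single UMI, for example 42 of the 69 barcodes with Il4 in Papain WT, while 16 of the 64 with Il13 held 10 or more.

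Each barcode was placed in a class by the marker genes with a UMI. With T cells defined by 2 or more of 6 genes (Cd3e, Cd3d, Cd3g, Trac, Trbc1, Trbc2), ahead of ILC2, 180 of the 227 producers were T cells. In that class, KO against WT after papain gave log2 ratios of CPM of -2.97 (-3.71 to -2.31) for Il4, -0.61 (-0.96 to -0.26) for Il5 and -4.03 (-4.57 to -3.54) for Il13, 2 of them past 2-fold, where 2.87% of all genes were lower by that much. This rule left ILC2-like cells with at least 3 ILC2 genes and under 2 T genes. In them Il5 gave 1.79 (0.14 to 3.66), from 11 KO and 5 WT UMIs. Il13 gave 4.01 (2.90 to 5.38), from 72 and 7, where 2.98% of all genes were 2-fold or more higher. In Papain WT this class held 83 cells at a median depth of 15681 UMIs, against 5639 for its 5 producers. Only 5 and 16 cells of that library had 5 or more ILC2 genes with 0 and 1 T genes. Most of the class thus met only the lower ILC2 limit, and its ratios give no direction for ILC2. The T class was mixed. Of its 180 producers, 66 carried 5 or more of 10 ILC2 genes (Il1rl1, Gata3, Rora, Areg, Il7r, Icos, Il2ra, Hs3st1, Il17rb, Klrg1) and at most 3 T genes. ILC2 are known to transcribe parts of the T cell receptor beta and CD3 gamma genes without a complete receptor. Whether this accounts for these 66 cells was not tested. Among all cells with 5 or more ILC2 genes, the numbers with 0, 1, 2, 3, 4, 5 and 6 T genes were 10, 56, 114, 75, 44, 194 and 294, so 2 groups stood on either side of 4.

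The classes used from here on were drawn at that gap, after these counts had been seen. T cells carry 4 or more T genes, ILC2-like cells carry 3 or fewer T genes and 5 or more ILC2 genes, and cells with 2 or 3 T genes and too few ILC2 genes are called unresolved. Close to the line lay 75 ILC2-like cells with exactly 3 T genes, of which 29 were producers, and 44 T cells with exactly 4 T genes and 5 or more ILC2 genes, of which 8 were producers. Basophil-like cells carry 2 or more of 7 basophil and mast cell genes (Mcpt8, Cd200r3, Fcer1a, Ms4a2, Cpa3, Gata2, Cyp11a1) and were assigned first.

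**Figure D1:**
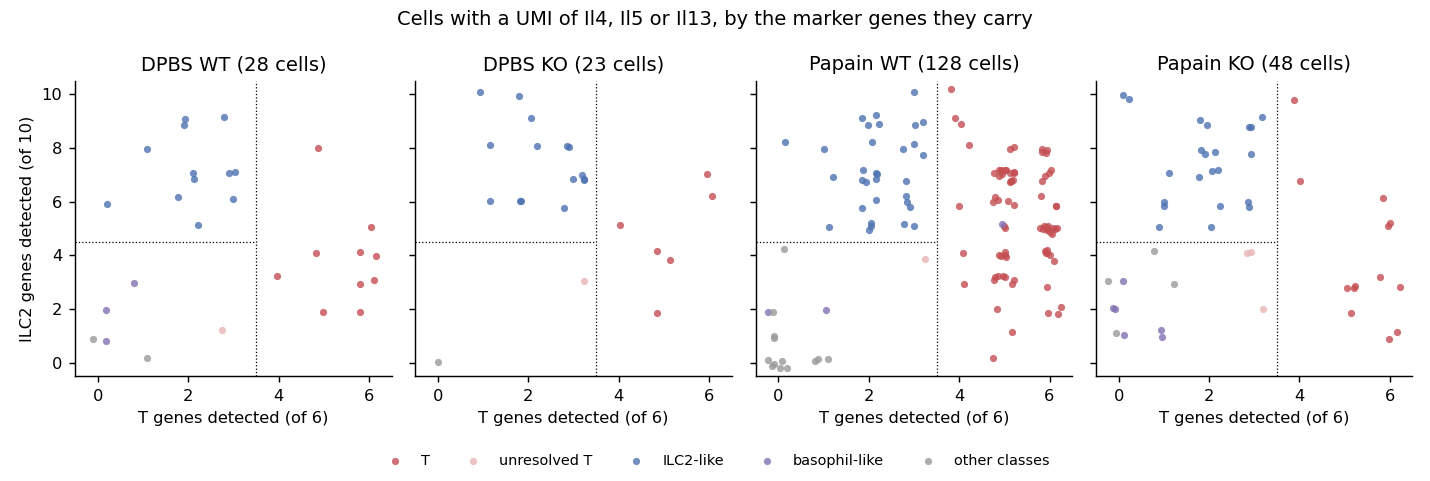
Every producer barcode of the 4 libraries by the number of T genes (x axis, of 6) and ILC2 genes (y axis, of 10) with a UMI, with small random offsets so that points do not hide each other. Dotted lines mark the class limits and colours the classes; the right-hand group of T cells is large in Papain WT, at 79 producers, against 10, 6 and 13 in the other libraries.

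The shares of the defining markers follow from the rule and are given as a description. Of the 254 ILC2-like cells, 92.5% had a UMI of Gata3, 93.7% of Rora and 86.6% of Il1rl1, the receptor for IL-33, but only 3.94% had one of Cd3e and 7.48% one of Trac. Their UMIs of Trbc2 (83.1% of cells), Trbc1 (64.2%) and Cd3g (38.2%) are what placed them among T cells under the looser rule. Of the 9894 T cells, 95.4% had a UMI of Cd3e and 90.5% one of Trac, and 3.54% had one of Il1rl1. Cd4 and Cd8a, which the rule did not use, had a UMI in 36.4% and 33.4% of T cells and in 1.57% and 0.394% of ILC2-like cells.

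Of all member UMIs in the DPBS libraries, ILC2-like cells held 79.6% in WT and 91.8% in KO, and T cells held 15.5% and 6.12%. The WT share rests on 1 ILC2-like barcode with 128 of the 206 UMIs, and without it ILC2-like cells held 36 and T cells 32 of the 78 left. Il4 in DPBS WT lay more in T cells, with 11 of 21 UMIs, than in ILC2-like cells, with 5. After papain the libraries differed by genotype. T cells held 58.8% of the member UMIs in Papain WT but 9.52% in Papain KO, where ILC2-like cells held 76.2%, against 39.4% in Papain WT. The Papain KO split depends on the class limit, since with T cells defined by 3 or more T genes they held 48.7% and ILC2-like cells 38.8%, 1 cell with 3 T genes holding 75 of the 273 UMIs. With that cell left out and the limit at 4, the shares were 13.1% and 67.2%.

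**Figure D2:**
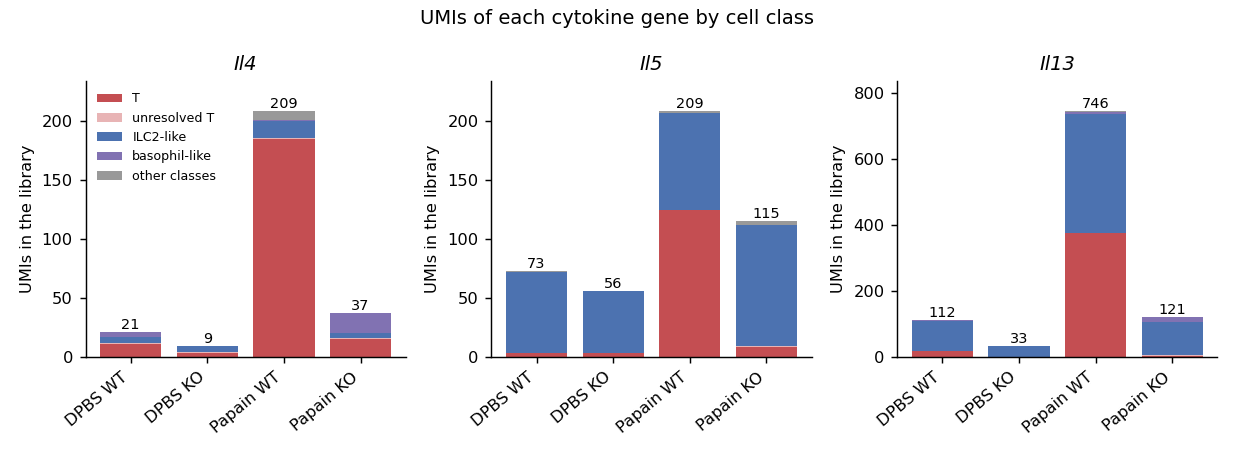
UMIs of Il4, Il5 and Il13 in each library (y axis, a separate scale for each gene), stacked by the class of the cell that holds them. In Papain WT the T cells hold 185 of 209 Il4 UMIs, 125 of 209 Il5 UMIs and 374 of 746 Il13 UMIs, and in Papain KO 15 of 37, 8 of 115 and 3 of 121.

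Il4 showed the T cell contrast from a low base. T cells held 11, 3, 185 and 15 Il4 UMIs in 6, 3, 48 and 8 cells of the 4 libraries. Their level was 0.455 CPM (0.227 to 0.814), 0.202 CPM (0.0417 to 0.591), 7.47 CPM (6.44 to 8.63) and 0.761 CPM (0.426 to 1.26). The interval of Papain WT did not overlap those of the other 3 libraries, which overlapped each other. In T cells after papain, Il4 was 9.81-fold lower in KO than in WT, a log2 ratio of -3.29 (-4.16 to -2.54). Papain against DPBS gave 4.04 (3.17 to 5.07) in WT and 1.91 (0.09 to 4.34) in KO. The KO value compares 15 UMIs with 3, and 7 of the 15 lay in 1 cell.

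Il5 in T cells was likewise highest in Papain WT. It had 3, 3, 125 and 8 UMIs in 2, 3, 23 and 3 T cells, that is 0.124, 0.202, 5.05 and 0.406 CPM. Only Papain WT stood clear of the other libraries. KO against WT after papain gave a log2 ratio of -3.64 (-4.88 to -2.61), and papain against DPBS in WT gave 5.35 (3.77 to 7.64). Of the 8 UMIs in Papain KO, 6 lay in 1 cell with 4 T genes and all 10 ILC2 genes. This gene depends on the class limit, since with T cells defined by 3 or more T genes its ratio was only -0.48 (-0.87 to -0.09), as cells with 3 T genes and 5 or more ILC2 genes held 79 Il5 UMIs in Papain KO and 31 in Papain WT. For Il4 and Il13 that limit gave -3.15 and -3.86. In DPBS both genotypes were at the floor of 3 UMIs, and no fold is given.

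Il13 had the largest difference of the 3 in T cells between the genotypes after papain. It had 18, 0, 374 and 3 UMIs in T cells of the 4 libraries. These are 0.744 CPM (0.441 to 1.18), 0, 15.1 CPM (13.6 to 16.7) and 0.152 CPM (0.0314 to 0.445). Of the 18 UMIs in DPBS WT, 17 lay in a single cell that also carried 3 B cell genes. KO against WT after papain gave a log2 ratio of -6.63 (-8.92 to -5.07), from 3 UMIs against 374. Against DPBS, papain gave 4.34 (3.66 to 5.11) in WT, and without the T cell with the most Il13 UMIs of each library this became 8.30 (5.81 to 13.61), from 1 remaining DPBS UMI. Between the DPBS libraries no fold is given, since 17 of the 18 UMIs came from that cell.

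All 3 members with UMIs were more than 2-fold lower in T cells of Papain KO than of Papain WT, where 3.17% of the 12736 genes with at least 20 UMIs in the pair were lower by that much and 1.03% higher. The median log2 ratio over those genes was -0.11, so the members lay far below the general shift. All 3 were also more than 2-fold higher in Papain WT than in DPBS WT, against 3.61% of 12842 genes. The 2 comparisons share the Papain WT library.

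The number of producing T cells differed as well as the UMIs in them. Producers were 10 of 3030 T cells (0.330%, 0.158 to 0.606), 6 of 1898 (0.316%, 0.116 to 0.687), 79 of 2808 (2.81%, 2.23 to 3.49) and 13 of 2158 (0.602%, 0.321 to 1.03) in the 4 libraries. Thinned to 2000 UMIs per cell, the shares were 0.134%, 0.161%, 1.41% and 0.187%, with 52, 36, 45 and 15 shallower cells left out. B cells, which should lack these cytokines, had producers at 0, 0, 0.208% and 0.0530% unthinned, at median depths of 3940 to 4866 UMIs against 6166 to 7482.5 in T cells. In B cells each such UMI was a single one, and the thinned shares were 0, 0, 0.0436% and 0. The share in B cells of Papain WT is thus far below that in T cells of the same library.

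The producing T cells of Papain WT were mostly CD4 cells. Of the 79, 51 had a UMI of Cd4 alone, 5 of Cd8a or Cd8b1 alone, 8 of both and 15 of neither, while among all 2808 T cells 1126 had Cd4 alone and 847 a Cd8 gene alone. The 79 were deeper, at a median of 11344 UMIs against 6803.5 over all T cells of that library. The part of depth in these counts was not tested. Foxp3, the factor of regulatory T cells, had a UMI in 4 of the 79. The 13 producing T cells of Papain KO differed in these markers but were also shallower, at a median of 6742 UMIs against 11344. Of them 2 had Cd4 alone and 8 had neither, where 649 and 516 of all 2158 T cells of that library did. Of the 13, 7 had a UMI of a gamma-delta T cell receptor constant gene (Trdc, Tcrg-C1, Tcrg-C2 or Tcrg-C4), against 8 of 79 in Papain WT. Over all T cells these were 196 of 2158 in Papain KO and 221 of 2808 in Papain WT. ILC2-like cells had such UMIs too, in 108 of 254 cells and in 11 of the 22 producers of Papain KO.

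ILC2-like cells held Il5 and Il13 at far higher levels than T cells in every library. Their Il13 level was 276.7 CPM (222.5 to 340.1), 94.5 CPM (64.7 to 133), 517 CPM (465 to 573) and 239 CPM (195 to 291). The DPBS WT level rests largely on 1 barcode, with 84 of the 90 Il13 UMIs. In Papain WT the Il13 level of ILC2-like cells was above basophil-like cells at 265.6 CPM (97.5 to 578) and T cells at 15.1 CPM. The wide basophil interval overlaps that of ILC2-like cells, however. In Papain KO the order turned, with Il13 at 325 CPM (173 to 555) in basophil-like cells, again with overlap. Il4 was higher in basophil-like than in ILC2-like cells of Papain KO, at 425 CPM (247 to 680) against 9.48 CPM (2.58 to 24.3). Producers were 12 of 59, 15 of 47, 32 of 84 and 22 of 64 ILC2-like cells. As shares these are 20.3% (10.98 to 32.8), 31.9% (19.1 to 47.1), 38.1% (27.7 to 49.3) and 34.4% (22.9 to 47.3), and the intervals overlap.

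**Figure D3:**
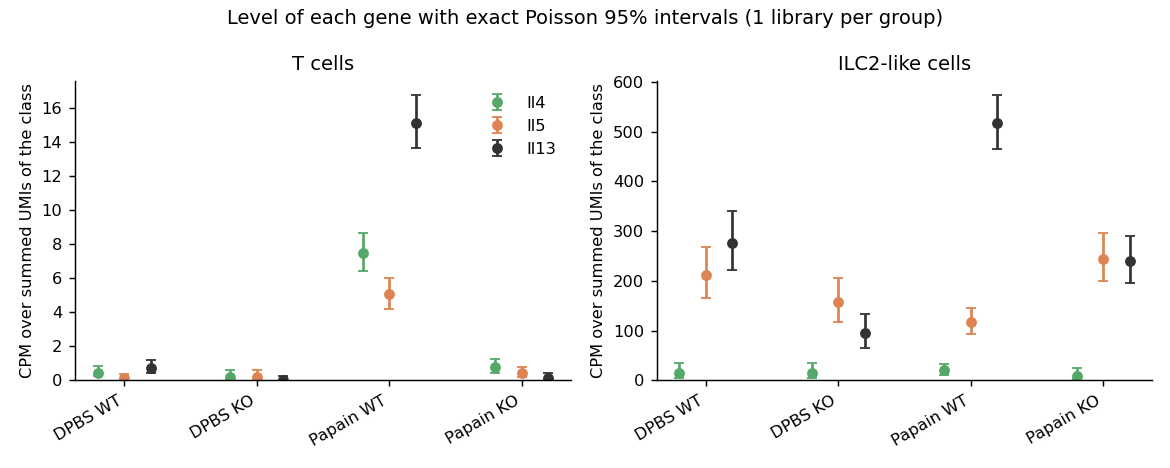
Level of Il4, Il5 and Il13 in T cells (left) and ILC2-like cells (right) of the 4 libraries, in CPM over the summed UMIs of the class, with exact Poisson 95% intervals and separate scales. In T cells Papain WT stands apart for all 3 genes, while Il5 and Il13 in ILC2-like cells run from 94.5 to 517 CPM. Single cells carry much of this, with 84 of 90 Il13 and 44 of 69 Il5 UMIs of DPBS WT in 1 cell. For Il5, 1 cell held 40 of 53 UMIs in DPBS KO and 72 of 103 in Papain KO.

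Between genotypes some ILC2-like values depended on single cells. Il13 gave a log2 ratio of KO to WT of -1.11 (-1.44 to -0.79) after papain, where 10.8% of 5954 genes were lower by 2-fold or more and 2.17% higher, and -1.55 (-2.18 to -0.95) in DPBS, where 3.77% were lower. The median over genes in the papain pair was -0.14. Without the cell with the most Il13 UMIs in each library the papain value was -1.14 (-1.55 to -0.75). The share of ILC2-like cells with an Il13 UMI, however, was 21.4% in Papain WT and 20.3% in Papain KO. In DPBS WT, 84 of the 90 Il13 UMIs and 44 of the 69 Il5 UMIs lay in 1 barcode, which also carried 3 B cell genes. Without the top cells, KO against WT in DPBS turned to 1.34 (-0.09 to 2.98). Papain against DPBS gave 0.90 (0.57 to 1.25) for Il13 in WT and 1.34 (0.75 to 1.96) in KO, where 4.09% of genes were 2-fold or more higher. Without the top cells these were 4.27 and 1.79, so both libraries kept the direction.

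Il5 in ILC2-like cells stood at 212 CPM (165 to 268), 156.6 CPM (117 to 205), 117 CPM (92.9 to 145) and 244 CPM (199 to 296). KO against WT after papain gave a log2 ratio of 1.06 (0.63 to 1.5), the opposite direction to T cells. Of the 103 UMIs in Papain KO, however, 72 lay in 1 cell of 28046 UMIs with 3 T genes and 9 ILC2 genes. Without the top cell of each library the ratio was -0.12 (-0.79 to 0.53), and with the share of cells in place of CPM it was -0.53. No direction can be read for Il5 in these cells.

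Il4 in ILC2-like cells was sparse, with 5, 5, 14 and 4 UMIs, and no cell held more than 4. KO against WT after papain gave -1.07 (-3.13 to 0.60), which holds 0. Ift20 in ILC2-like cells was 67.6, 56.1, 82.6 and 66.4 CPM in the 4 libraries, with overlapping intervals.

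**Figure D4:**
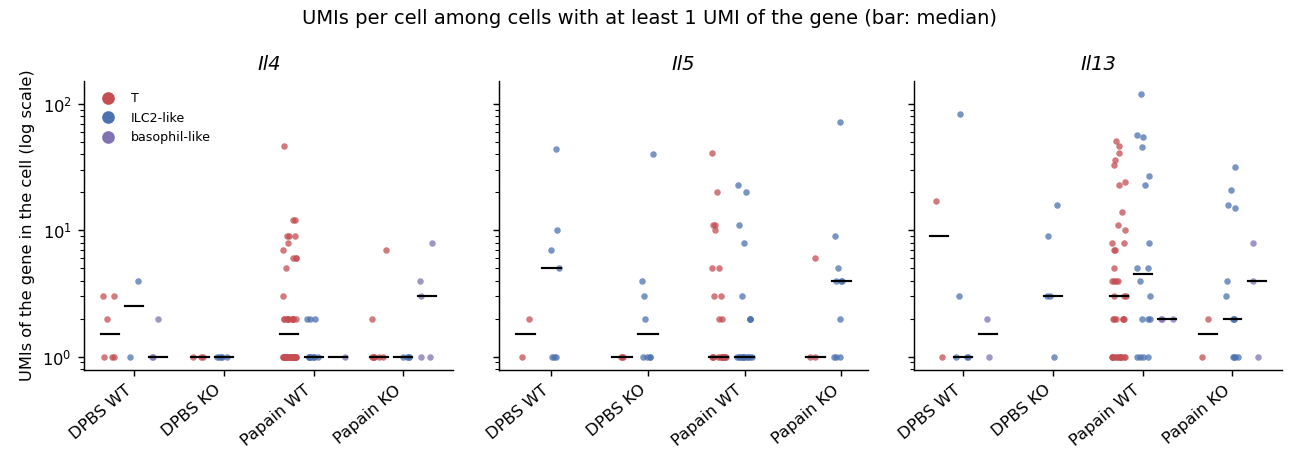
UMIs of each gene in every T, ILC2-like and basophil-like cell that has at least 1 (y axis, log scale), by library, with the median as a bar. Most cells hold 1 to 5 UMIs, and a few hold the bulk, such as the ILC2-like cell with 120 Il13 UMIs in Papain WT and the one with 72 Il5 UMIs in Papain KO.

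The spread between single cells was wide in Papain WT too. Among its T cells the most in 1 cell were 47 of 185 UMIs for Il4, 41 of 125 for Il5 and 51 of 374 for Il13, with medians of 1.5, 1 and 3 UMIs over the cells with the gene. The cell with 41 Il5 UMIs also held the 51 of Il13 and 6 of Il4. The cell with 47 Il4 UMIs held neither of the others. A T cell of 66512 UMIs with 4 T genes and 9 ILC2 genes held 47 Il13 UMIs and sits at the border of the classes.

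Co-expression was common in Papain WT. Of its 79 producing T cells, 6 held UMIs of all 3 genes, 10 of Il4 and Il13, 6 of Il5 and Il13, and 4 of Il4 and Il5, while 28 held Il4 alone, 18 Il13 alone and 7 Il5 alone. Thus 26 of 79 (32.9%, 22.7 to 44.4) held 2 or more, and these cells carried 422 of the 684 member UMIs in T cells. In the T cells of the other libraries none of the 10, 6 and 13 producers held more than 1. For Papain KO the interval of that share reaches 24.7%, so it overlaps the interval of Papain WT. Co-expression also depends on depth, and with each cell thinned to 2000 UMIs the share in T cells of Papain WT was 12.8% in one random draw (5 of 39 producers) and 16.7% in another.

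Most ILC2-like producers, 59 of 81, held 1 member, and the most frequent pair was Il5 with Il13, in 19. In Papain WT, 7 held these 2 alone, 3 held all 3 genes, 2 Il4 and Il13 and 1 Il4 and Il5, of 32 in all. In Papain KO, 5 of 22 held Il5 and Il13 and no other pair was seen. In the DPBS libraries 2 of 12 WT and 2 of 15 KO producers held 2 or more. Il4 stood mostly alone in this class, in 15 of the 22 ILC2-like cells that held it over all libraries, with a median of 1 UMI.

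Basophil-like cells were few, and most of their Il4 UMIs lay in Papain KO. There were 6, 2, 4 and 6 in the 4 libraries, of which 3, 0, 3 and 6 were producers. They held 4, 0, 1 and 17 Il4 UMIs and 3, 0, 6 and 13 Il13 UMIs, and no Il5 UMI in any library. In Papain KO these 6 cells held 17 of the 37 Il4 UMIs of the whole library, more than the 15 in its 2158 T cells. Of the 12 basophil-like producers, 6 had a UMI of the basophil protease gene Mcpt8, and 6, a set that overlaps the first, had at least 2 mast cell protease genes (Tpsb2, Cma1, Mcpt4). Their rule does not separate basophils from mast cells. It was also applied first, and 1 producer of Papain WT, of 8321 UMIs, carried 5 T genes, 5 ILC2 genes and 2 basophil genes. That cell held 2 of the 6 Il13 UMIs of the class in Papain WT.

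The remaining producers were scattered. Unresolved cells numbered 1, 1, 1 and 3 in the 4 libraries, B cells 0, 0, 5 and 1, myeloid cells 2, 1, 7 and 0, and cells of no class 0, 0, 1 and 3. NK cells had none. In B and myeloid cells and in cells of no class no producer held more than 1 UMI of a gene. Eosinophils, which store type 2 cytokines, were not given a class. Of their granule genes, Epx had 0, 0, 1 and 1 UMIs and Prg2 had 15, 3, 215 and 58, and the eotaxin receptor gene Ccr3 had 21, 31, 72 and 26.

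Within the producing T cells of Papain WT, many listed genes, though not all, were higher than in the other T cells of the library. The producers were deeper, at a median of 11344 UMIs against 6803.5 over all T cells, and the values are therefore CPM. Of the 9 listed transcription factors, 6 were 2-fold or more higher and 0 lower, with a median log2 ratio of 1.60, while 8.03% of 11994 genes were higher by that much and 12.6% lower. Gata3, the master regulator of type 2 lymphocytes, stood at 794 CPM against 115 CPM, a log2 ratio of 2.79 (2.68 to 2.90). Bhlhe40, a cofactor of cytokine expression, was at 515 against 136.5 CPM, Rbpj, the Notch effector, at 312 against 49.6 CPM, and Maf, an activator of Il4, at 291.6 against 96.4 CPM.

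Of 7 measured alarmin receptors and surface genes, 5 were higher and 0 lower. Il1rl1 was at 245 CPM in producers against 32.9 CPM in the other T cells, a log2 ratio of 2.89 (2.69 to 3.09), and 59.5% of the producers had a UMI of it. Il17rb, the receptor for IL-25, gave 3.68 (3.15 to 4.19), Il2ra 1.30 (1.02 to 1.57) and the chemokine receptor gene Ccr4 1.70 (1.31 to 2.07). These are genes of the ILC2 list, apart from Ccr4. The T rule counts T genes only, but its limit was placed after looking at cells with 5 or more ILC2 genes.

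Of 9 measured other cytokine genes, 5 were higher and 1 lower. Areg, a tissue repair factor, gave 3.53 (3.40 to 3.65), Tnfsf11, which encodes RANKL, 3.97 (3.77 to 4.16), Calca, the gene of calcitonin and CGRP, 4.30 (3.89 to 4.71) and Il2 2.90 (2.43 to 3.36). Il17a, the cytokine of type 17 cells, had 1 UMI in the producers against 704 in the other T cells, a log2 ratio of -5.07 (-10.38 to -2.59). The 3 measured neighbours of the cluster were higher too, Rad50 at 1.57 (1.26 to 1.86), Kif3a at 1.31 (0.43 to 2.08) and Csf2, a cytokine gene farther along the chromosome, at 5.80 (5.15 to 6.5) with 72 UMIs in 7 producers. Il9r was the 1 of 6 measured receptors of the members that was higher, at 2.62 (2.11 to 3.1).

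The 10 genes with the highest ratio in these producers were Csf2, Tm4sf5, Ccdc184, Arg1, Igfbp7, Lgals7, Calca, Hlf, Tnfsf11 and Cxcl3. Their folds ran from 55.8 for Csf2 to 14.8 for Cxcl3. The broadest among the producers were Tnfsf11, seen in 45 of 79, Igfbp7 in 30, Lgals7 in 28 and Hlf in 27. Csf2, Tm4sf5 and Cxcl3 were seen in 7, 5 and 5 cells, so their folds rest on few cells. In the 13 producing T cells of Papain KO the order was led by Tcrg-C4, at 301 CPM against 7.81 CPM, and Ifng, at 372 CPM against 35.7 CPM, with Gata3 at 279 CPM against 64.2 CPM. In so small a set 14.9% of 11476 genes were 2-fold or more higher. The lists gave 5 of 9 transcription factors, 4 of 7 surface genes, 5 of 9 cytokine genes and 3 of 3 locus neighbours higher. In them Ccr8 and Il17a were lower, and of 6 receptors of the members 0 were higher and 2 lower. The share of all genes that were lower in these 13 cells is not given here, so the lower counts cannot be read.

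**Figure D5:**
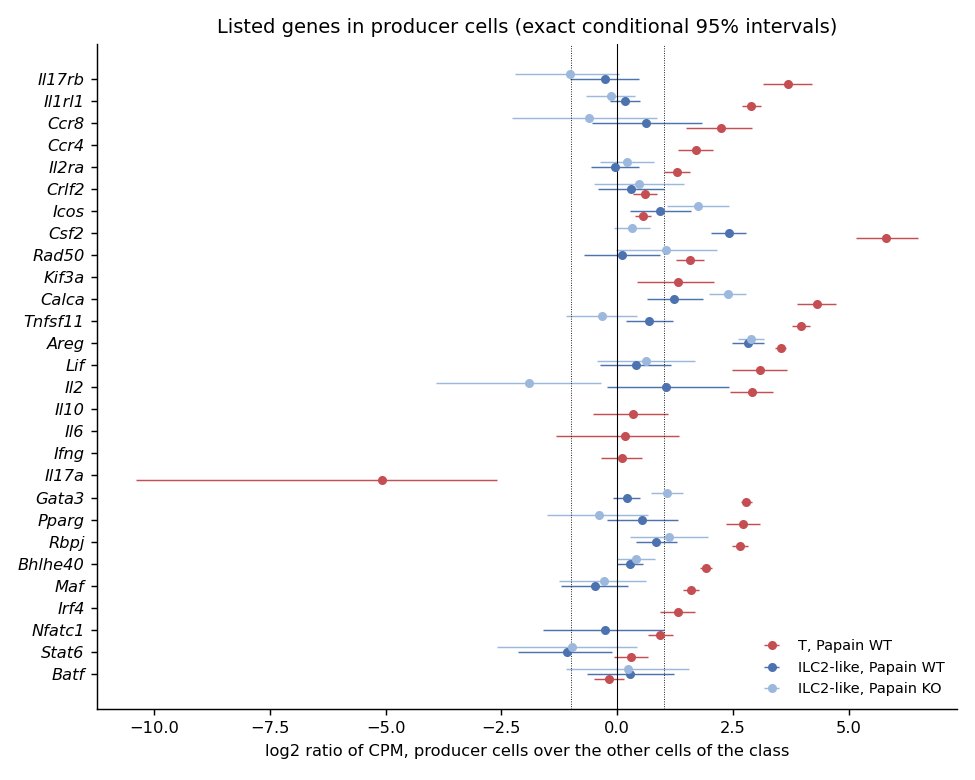
Log2 ratio of CPM in producers over the other cells of the class (x axis) for the listed genes with at least 20 UMIs, with exact conditional 95% intervals and dotted lines at 2-fold. In T cells of Papain WT (red) most listed genes lie to the right, with Gata3 at 2.79 and Areg at 3.53, while in ILC2-like cells of Papain WT (dark blue) and Papain KO (light blue) Gata3 lies at 0.20 and 1.06, Il1rl1 at 0.17 and -0.13 and Areg at 2.82 and 2.89.

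In ILC2-like cells the transcription factor and surface lists gave other counts. In Papain WT 0 of 8 measured transcription factors and 0 of 6 surface genes were 2-fold higher in producers, where 4.0% of 4596 genes were. Stat6 was lower. Of the cytokine genes 3 of 5 (Areg, Il2 and Calca) were higher, and of the locus neighbours 1 of 2 (Csf2). Gata3 had a log2 ratio of 0.20 (-0.09 to 0.50) and Il1rl1 0.17 (-0.16 to 0.50). In Papain KO 2 of 7 transcription factors (Gata3 at 1.06 and Rbpj at 1.11) and 1 of 6 surface genes (Icos at 1.73) were higher, where 7.61% of genes were. So were 2 of 5 cytokine genes (Areg and Calca) and 1 of 2 locus neighbours (Rad50), while Il17rb and Il2 were lower. Areg was higher in both papain libraries. Its log2 ratio was 2.82 (2.47 to 3.18) among WT cells and 2.89 (2.61 to 3.17) among KO cells, but it was at 0.65 and 0.59 in the DPBS libraries. Csf2 was at 2.40 (2.03 to 2.79) in Papain WT and 2.56 (2.03 to 3.13) in DPBS KO, where 8.65% of genes were higher, and at -0.17 and 0.32 in the other libraries. Areg, Gata3, Il1rl1 and Icos are among the genes that define the class.

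The same lists were then compared between libraries in T cells as a whole. From WT to KO after papain, 5 of 7 measured surface genes, 4 of 9 cytokine genes and 2 of 9 transcription factors were lower by 2-fold or more, and none of these was higher, against 3.17% lower and 1.03% higher among all genes. Il1rl1 was at 42.6 CPM in WT and 6.80 CPM in KO, a log2 ratio of -2.65 (-2.92 to -2.39). Il2ra stood at -1.72, Ccr4 at -1.65, Il17rb at -2.12, Areg at -1.80, Tnfsf11 at -1.64, Il10 at -1.49 and Lif at -1.16. Gata3 was at 145.9 CPM against 66.7 CPM, a log2 ratio of -1.13 (-1.22 to -1.04), and Rbpj at -1.07. The make-up of the T class differed as well, with a UMI of Cd4 in 45.0% of WT and 33.2% of KO cells, of Cd8a in 26.3% and 37.6% and of Foxp3 in 7.73% and 4.12%, and its part in these values was not tested.

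The locus neighbours differed less, and 0 of 3 passed 2-fold. Rad50, which lies between Il13 and Il5, was at 34.5 CPM in WT T cells after papain and 31.6 CPM in KO, a log2 ratio of -0.13 (-0.28 to 0.02). Kif3a gave -0.63 (-1.06 to -0.21) and Csf2 -0.32 (-0.80 to 0.15). From DPBS WT to Papain WT, 6 of 7 surface genes, 7 of 9 cytokine genes and 3 of 9 transcription factors were 2-fold or more higher, against 3.61% of 12842 genes. Il1rl1 was higher by 3.88 and Gata3 by 1.32 on the log2 scale. From DPBS KO to Papain KO the numbers were 1 of 7 (Il1rl1), 3 of 9 (Il17a, Il10 and Il6) and 0 of 9, where 2.54% of 12238 genes were higher.

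Few receptors of the members passed 2-fold. In T cells 1 of 6 measured receptor genes, Il9r, was lower in Papain KO than in Papain WT, at -1.41 (-1.84 to -0.99). In myeloid cells 0 of 4 and in B cells 0 of 6 passed 2-fold between the genotypes after papain, where 3.67% and 3.6% of all genes did in either direction. Il4ra, the receptor chain shared by IL-4 and IL-13, stood at 74.2 CPM in WT myeloid cells after papain and 67.4 CPM in KO.

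Genes that IL-4 and IL-13 are known to induce in macrophages were examined in myeloid cells, a class that holds macrophages among other cells. Its rule is 2 or more of Lyz2, Csf1r, Cd68, Fcgr3, Csf3r, Itgam and Itgax, which does not set macrophages apart. The class held 2336, 2043, 2582 and 1455 cells in the 4 libraries, and the part of its make-up in these values was not tested. From DPBS WT to Papain WT, 5 of 9 (Chil3, Arg1, Ccl24, Ccl17 and Mgl2) were higher by 2-fold or more and 0 lower, against 6.37% of 12819 genes. From WT to KO after papain the same 5 were lower, against 2.43% of 12592 genes. These 2 comparisons share the Papain WT library. Arg1, which encodes arginase, had 27, 11, 1404 and 34 UMIs. Ccl24, an eosinophil attractant, had 16, 36, 3449 and 126, and Ccl17, which attracts T helper 2 cells, 988, 1889, 10828 and 1694. Papain WT was the highest library for each. KO against WT after papain gave log2 ratios of -4.73 (-5.26 to -4.24) for Arg1, -4.13 (-4.40 to -3.88) for Ccl24, -2.04 (-2.11 to -1.96) for Ccl17 and -1.33 (-1.46 to -1.21) for Mgl2, a lectin gene. Papain against DPBS in KO left 2 of 9 past 2-fold (Arg1 at 2.31 and Ccl24 at 2.49), against 3.85% of genes. In DPBS, Ccl17 and Ccl24 were 2-fold or more higher and Arg1 lower in KO, where 2.25% of genes passed in either direction.

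These macrophage genes also gave UMIs in lymphocytes and moved with the library there. Chil3, a chitinase-like protein of alveolar macrophages, stood at 1031 CPM in WT and 326 CPM in KO T cells after papain, and at 3341 and 900 CPM in B cells. Ccl24 had 398 UMIs in T cells of Papain WT and 1 in Papain KO, and 285 and 3 in B cells. In B cells 6 of 9 genes of the list were lower in KO, where 2.25% of all genes were. Markers of a second class (at least 2 B genes or 3 myeloid genes) stood on 12.8%, 8.59%, 14.0% and 12.7% of T cells and on 5, 3, 12 and 1 of the ILC2-like cells. The part of free RNA or of doublets in these values was not tested.

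The genes whose level over 28 sums (7 classes in 4 libraries, drawn with the looser T rule) ran most like each member were Itga9, Poln and Itga2b for Il4, with Pearson r of log2(CPM + 1) of 0.94, 0.93 and 0.92. For Il5 they were Lrrc75b, Bmp7 and Tnfrsf25, at 0.96, 0.96 and 0.94, and for Il13 Enah, Rab4a and Mboat1, at 0.89, 0.86 and 0.84, among 14130 genes. The sums share libraries, and the basophil-like ones come from at most 6 cells, so these are descriptions.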

How the data were processed

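The deposited files hold, for each library, UMI counts per gene and barcode, which the authors had produced with Cell Ranger and mm10 per the submitters' processing notes (software version 3.1.0 in the matrix headers). The cell-calling rule and any doublet removal are not given in the sources used here. All deposited barcodes were kept. The genes, classes, lists and alternatives were chosen with earlier results of these data known, and the T and ILC2-like limits used in the text after the first class counts had been seen.

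A gene counted as detected with 1 UMI or more. Classes were basophil-like, T, ILC2-like, B (2 of 4 genes), NK, myeloid and none. UMIs were summed per class and library and given as CPM with exact Poisson intervals, ratios with exact conditional binomial intervals, and shares with exact Clopper-Pearson intervals. Against 0 UMIs a floor of 3 counts was used. A gene was called at 2-fold or more with at least 20 UMIs in the pair. No test between groups was run, as each group is 1 library. UMIs of 1 cell are not independent, so these intervals are too narrow where 1 cell holds many.

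Named were the members, Ift20, up to 4 genes of each of 6 lists (48 genes, 47 in the files) with the most UMIs among those past the fold, Arg1 in myeloid cells and Ccl24 in lymphocytes after their values were seen, the 3 nearest genes per member and the 10 leading genes of producers with at least 20 UMIs in 5 cells. A barcode carried markers of a second class with 2 or more B genes or 3 or more myeloid genes. That held for 12.3% of T cells and 8.27% of ILC2-like cells. Scrublet scores (scanpy 1.11.5) were used in an alternative only. Its own threshold marked 0.0341% of the Papain KO library, too few to be used, so the top scores were left out at 0.8% per 1000 barcodes. Scripts ran in Python 3.11.15 with scipy 1.17.1, numpy 2.4.6, pandas 2.3.3 and matplotlib 3.10.9, and in R 4.3.3 with edgeR 4.0.16 for TMM factors only.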

Additional observations from a re-analysis of the deposited data

Results flagged for a closer look

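The response to papain had values of opposite sign in WT and KO for 4 pairs of values, and none of these differences was tested, since each group is 1 library. With T cells defined by 2 or more T genes, Il13 gave a log2 ratio of papain over DPBS of 2.74 in WT and -0.17 (-0.91 to 0.58) in KO. In the ILC2-like cells of that rule, Il5 gave -1.54 (-3.66 to 0.58) in WT and 0.70 (-0.94 to 2.58) in KO, from 5 to 11 UMIs a library, and both intervals held 0. In ILC2-like cells drawn with 5 or more ILC2 genes, Il4 gave 0.38 in WT and -0.64 in KO, and both intervals held 0. In the same cells Il5 gave -0.86 in WT and 0.64 in KO, and the WT value turned to 0.10 without the cell with the most Il5 UMIs of each library.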

How the results depend on the processing

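No paired analysis was possible because each group is 1 library. Of 468 values under alternatives, 372 stayed close to the reported one, 81 moved and 15 reversed. For a ratio, close means inside the counting interval of the reported value, which can be wide. Some alternatives could not change a value, since T cells are assigned before the ILC2 gene limit is applied. The count is therefore no measure of robustness. The cause of the moves and reversals was not tested. All ratios here are log2. The class limits with 4 or more T genes, and the alternatives to them, were chosen after seeing the data.
In T cells with 4 or more T genes after papain, KO against WT stayed negative in every alternative. With the share of cells in place of CPM it was -2.21 for Il4, -2.56 for Il5 and -3.94 for Il13. With 3 or more T genes it was -0.48 for Il5 and -3.86 for Il13, and with 5 or more -5.63 for Il5. For Il5 it was -5.06 without the top cells and -2.34 as a mean over cells. Papain against DPBS in WT gave 3.11 for Il4 and 3.63 for Il5 with shares, and for Il13 8.35 without second-class barcodes, 8.30 without top cells and 3.27 as a mean over cells.
With 2 or more T genes, KO against WT after papain was -2.19 (mean over cells) and -1.81 (shares) for Il4, -3.64 (4 or more T genes), -1.98 (top cells out) and -1.31 (shares) for Il5, and -3.40 (1 or more T genes), -6.63 (4 or more), -4.66 (top cells out), -3.05 (mean over cells) and -1.95 (shares) for Il13. In the ILC2-like cells of that rule it turned with 3 or more T genes to -0.24 for Il5 and -0.79 for Il13, and with the later limits to -1.11 for Il13, which was 2.01 with shares.
In ILC2-like cells with 5 or more ILC2 genes, KO against WT after papain was -0.56 (3 or more T genes), -0.12 (top cells out), 0.34 (mean over cells) and -0.53 (shares) for Il5, and -1.52 (second-class barcodes out), -0.20 (mean over cells) and -0.077 (shares) for Il13. In DPBS it was 1.121, -1.02, 0.24 and 0.52 for Il5 and 2.28, 1.34, -0.62 and 0.33 for Il13, without second-class barcodes, without top cells, as a mean over cells and with shares. Papain against DPBS in WT was 2.54 for Il4 without top cells, 0.71, 0.10 and 0.93 for Il5 and 4.92, 4.27 and 1.34 for Il13 without second-class barcodes, without top cells and with shares, and 0.37 for Il13 with 3 or more T genes. In KO it was -1.61 (3 or more T genes), -0.59 (mean over cells) and -0.12 (shares) for Il5.
Shares moved with the class limits. With 2 or more T genes as the start, T cells held 71.9% of Papain WT producers (3 or more T genes), 61.7% (4 or more), 92.9% (second-class barcodes out) and 90.9% (2 UMIs or more), and 45.8% and 27.1% of Papain KO producers with 3 or 4 T genes. With 4 T genes they held 58.8% and 9.52% of the member UMIs. The ILC2-like share of Papain WT was 16.4% of producers and 24.0% of UMIs with 3 T genes, 25.0% and 39.4% with 4, and 0.430% of UMIs with 1, and that of Papain KO was 6.25%, 39.6% and 45.8% of producers with 1, 3 and 4 T genes and 76.2% of UMIs with 4. From the later limits, 3 T genes gave T cells 60.9% of producers and 16.3% of UMIs in DPBS KO, 71.9% of producers in Papain WT, and 45.8% of producers and 48.7% of UMIs in Papain KO. ILC2-like cells then held 34.8% of DPBS KO producers, 15.6% of producers and 23.9% of UMIs in Papain WT and 38.8% of UMIs in Papain KO. With 2 UMIs or more the T share of producers was 0 in DPBS KO and 71.2% in Papain WT and the ILC2-like share 100% in DPBS KO. T cells held 25.5% of DPBS WT UMIs without second-class barcodes. Without the barcode with the most member UMIs of each library, an alternative added after seeing the data, T cells held 41.0% of DPBS WT and 10.3% of DPBS KO UMIs and ILC2-like cells 46.2% of DPBS WT UMIs.
The share of producers with 2 or more members, thinned to 2000 UMIs in a random draw of its own, was 19.6% (2 T genes) and 16.7% (4 T genes) in T cells of Papain WT and 0 and 22.2% in its ILC2-like cells. It was 0 in Papain KO T cells with 4 T genes and 45.5% in its ILC2-like cells with 2 UMIs or more. With 1 UMI as the minimum, 4057 and 4144 genes passed 2-fold in T cells and 4667 and 4751 in ILC2-like cells, for KO against WT after papain and papain against DPBS in WT. Depth limits all classes, since many producers hold a single member UMI.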
